A study of Mus musculus with 16 samples.

Results

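The expression of 34 genes of glycolysis and the pentose phosphate pathway was described in donor T cells recovered from mice after hematopoietic stem cell transplantation. The members were taken by gene symbol: transporters of glucose and lactate, the enzymes from hexokinase to lactate dehydrogenase with their isoenzymes, subunits and kinases of pyruvate dehydrogenase, the regulator Hif1a, and 4 pentose phosphate enzymes. All 34 were on the array, and all 34 were among the 26890 features tested, of which 13696 carried a gene symbol. Of the 34, 33 lay well above the array background on all 16 arrays and Slc16a1 on 14, among them every array of 4 groups, so that no member entered the test through a single group.

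Glycolysis splits glucose into pyruvate in the cytosol and yields ATP and building blocks. Pyruvate is either reduced to lactate by lactate dehydrogenase and exported, or oxidised in mitochondria through pyruvate dehydrogenase, which its kinases (the Pdk proteins) switch off. The pentose phosphate pathway branches off at glucose 6-phosphate and supplies NADPH and ribose. T cells that are activated to divide are known to raise glucose uptake and lactate output, a shift in which the transcription factors HIF-1 and MYC take part.

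The 16 one-colour arrays measured total RNA of double-sorted donor T cells from female mice on the C57BL/6 background. They fell into 6 groups: CD8+ T cells from the ovary after allogeneic transplantation (4 arrays), CD8+ T cells from the spleen after allogeneic transplantation (3) and after syngeneic transplantation (3), and CD4+ T cells from the ovary after allogeneic transplantation (2), from the spleen after allogeneic transplantation (2) and from the spleen after syngeneic transplantation (2). Graft and host differ in tissue type after an allogeneic transplant and match after a syngeneic one, so the syngeneic controls were transplanted too. The recipient strain, the age of the mice, the time after transplantation and whether an array held cells of 1 mouse or of several are not given in the sources used here, so p-values measure the spread between these arrays.

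Levels are given as the log2 signal of a gene's probe minus the 75th percentile of its array, so that 0 is the 75th percentile. The 75th percentile itself ranged from 67.6 to 449.7 signal units, and 41.8% to 59.4% of probes lay well above background; both CD4 groups of allogeneic recipients had replicate 2 as their dimmest array, and these were the dimmest of all 16. The sorts carried their labelled markers: all 6 pan-T-cell genes measured were well above background on all 16 arrays, Cd8a was not well above background on any of the 6 CD4 arrays, and the summed linear level of Cd8a and Cd8b1 was 85.0 to 141.9 on CD8 arrays against 0.177 to 1.17 on CD4 arrays. Markers of other cells were also measured. The summed level of 10 macrophage and monocyte genes was 7.45 to 15.0 on CD8 arrays against 27.2 to 158.1 on CD4 arrays, and that of 8 B-cell genes was 1.96 to 5.78 on allogeneic CD8 arrays against 15.7 to 25.0 on syngeneic CD8 arrays. In bulk RNA of this kind, a change in the share of cells and a change in RNA per cell cannot be told apart.

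The transplant comparison asked how donor T cells in the spleen of allogeneic recipients differed from those of syngeneic recipients. In CD8 cells most of the pathway was higher after allogeneic transplantation: 19 members rose, 2 fell and 13 were not called (limma, Benjamini-Hochberg adjusted p under 0.05 over all 26890 features). Over all features, 37.2% were called, 16.9% higher and 20.3% lower; among features with a symbol, 39.6% were called, 23.6% higher and 16.1% lower. The median difference of the 34 members was 0.60 on the log2 scale, against -0.21 over all features and 0.03 over those with a symbol. The arrays of both groups did not overlap for 23 members, 21 higher and 2 lower, against 52.9% of all features, 22.2% higher and 30.7% lower. The largest increase among the 34 was that of Slc16a3, which encodes the lactate exporter MCT4 and was 12.6-fold higher, and the largest decrease that of Pdk1, a kinase that inhibits pyruvate dehydrogenase, 5.54-fold lower. In CD4 cells 4 members rose and 3 fell, while 14.5% of all features were called, 9.28% higher and 5.26% lower, and 16.8% of those with a symbol. The median of the 34 members in CD4 cells was 0.26, against 0.03 over all features, and 20 members did not overlap between groups, 14 higher and 6 lower, against 50.7% of all features, 27.5% higher and 23.2% lower.

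**Figure D1:**
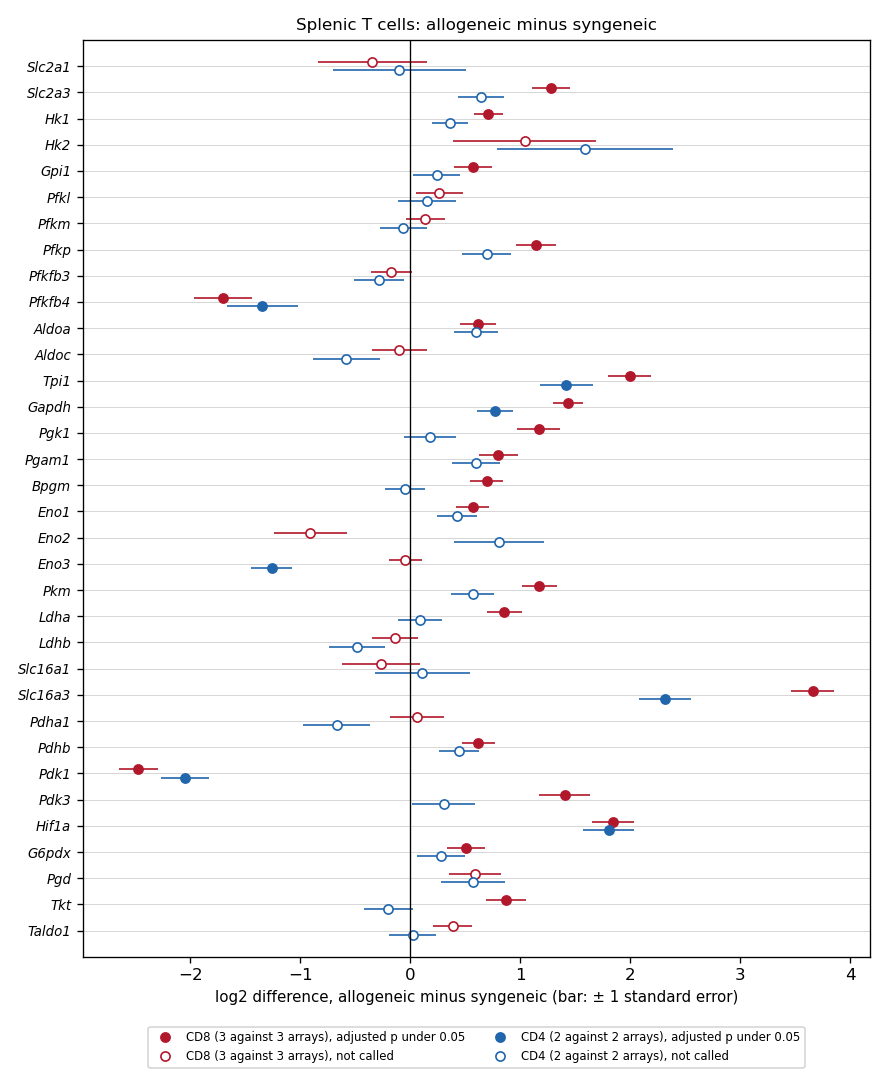
Log2 difference of each of the 34 members between allogeneic and syngeneic splenic T cells, with bars of 1 standard error, for CD8 cells (red, 3 against 3 arrays) and CD4 cells (blue, 2 against 2 arrays). Filled points passed the adjusted threshold: 21 members in CD8 cells and 7 in CD4 cells, with Slc16a3 at 3.66 and 2.32 and Pdk1 at -2.47 and -2.04.

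In both subsets 6 members were called in the same direction: Slc16a3, Hif1a, Tpi1 and Gapdh rose, and Pdk1 and Pfkfb4 fell. Slc16a3 had levels of 1.98, 2.09 and 1.99 on allogeneic splenic CD8 arrays, against -1.58, -1.94 and -1.39 on syngeneic ones. In CD4 cells it had 2.46 and 1.82 on allogeneic splenic arrays, against -0.27 and -0.08 on syngeneic ones. Every allogeneic array was above every syngeneic array of its subset, with mean differences of 3.66 ± 0.20 (standard error) in CD8 cells (limma adjusted p = 6.61e-08) and 2.32 ± 0.24 in CD4 cells (limma adjusted p = 0.000109). Ovarian cells had 2.15, 2.18, 1.73 and 2.11 on CD8 arrays and 2.75 and 2.71 on CD4 arrays, all above both syngeneic groups.

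Hif1a, which encodes the oxygen-regulated subunit of HIF-1, an activator of many glycolytic genes, showed 2.21, 1.84 and 1.77 on allogeneic splenic CD8 arrays against 0.03, 0.07 and 0.18 on syngeneic ones. Its CD4 values were 2.22 and 2.46 after allogeneic against 0.45 and 0.61 after syngeneic transplantation. The rise was 1.84 ± 0.19 in CD8 cells (limma adjusted p = 1.29e-05) and 1.80 ± 0.23 in CD4 cells (limma adjusted p = 0.000476), and the difference between subsets was 0.04 ± 0.30. Ovarian values were 1.55, 1.58, 1.96 and 1.56 in CD8 cells and 2.45 and 3.09 in CD4 cells.

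Tpi1, triosephosphate isomerase, had 4.35, 4.36 and 4.26 on allogeneic splenic CD8 arrays against 2.32, 1.96 and 2.70 on syngeneic ones. On CD4 arrays it had 4.12 and 3.44 after allogeneic against 2.32 and 2.41 after syngeneic transplantation. The groups did not overlap in either subset, and the increases were 1.996 ± 0.20 (CD8, limma adjusted p = 9.01e-06) and 1.42 ± 0.24 (CD4, limma adjusted p = 0.00255). Ovarian CD8 cells had 4.23, 4.29, 4.26 and 4.21 and ovarian CD4 cells 4.28 and 4.44.

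Gapdh, the glyceraldehyde 3-phosphate dehydrogenase that is often used as a loading control, was 8.03, 8.11 and 8.27 on allogeneic splenic CD8 arrays against 6.75, 6.46 and 6.88 on syngeneic ones. The CD4 values were 7.59 and 7.34 after allogeneic against 6.66 and 6.72 after syngeneic transplantation. Allogeneic arrays were above all syngeneic ones in each subset, with mean differences of 1.44 ± 0.14 in CD8 cells (limma adjusted p = 6.53e-06) and 0.77 ± 0.17 in CD4 cells (limma adjusted p = 0.0101); in CD4 cells the call was lost without replicate 1 of the syngeneic group (limma adjusted p = 0.074). Ovarian cells had 8.27, 8.17, 8.23 and 8.27 (CD8) and 8.11 and 8.03 (CD4).

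Pdk1 went the other way. It had -0.10, -0.60 and -0.54 on allogeneic splenic CD8 arrays against 2.04, 2.11 and 2.01 on syngeneic ones. On CD4 arrays it had -0.35 and 0.12 after allogeneic against 2.15 and 1.71 after syngeneic transplantation. All allogeneic arrays were below all syngeneic ones, and the differences were -2.47 ± 0.18 in CD8 cells (limma adjusted p = 7.6e-07) and -2.04 ± 0.22 in CD4 cells (limma adjusted p = 0.000148). Ovarian CD8 cells had -1.07, -0.97, -0.88 and -0.93 and ovarian CD4 cells -0.48 and -0.23.

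Pfkfb4 encodes an enzyme that makes and breaks down fructose 2,6-bisphosphate, the activator of phosphofructokinase. Its levels were -1.33, -1.85 and -2.18 on allogeneic splenic CD8 arrays against -0.15, -0.23 and 0.13 on syngeneic ones, and -0.21 and -0.44 on allogeneic against 1.04 and 0.99 on syngeneic splenic CD4 arrays. It fell by 1.70 ± 0.26 in CD8 cells (limma adjusted p = 0.000336) and by 1.34 ± 0.32 in CD4 cells (limma adjusted p = 0.0173). The CD4 call was lost when replicate 1 or 2 of the syngeneic group or replicate 2 of the allogeneic group was left out (limma adjusted p over single omissions 0.0372 to 0.1). Ovarian levels were -1.35, -1.04, -2.07 and -1.49 in CD8 cells and -0.09 and 0.32 in CD4 cells.

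**Figure D2:**
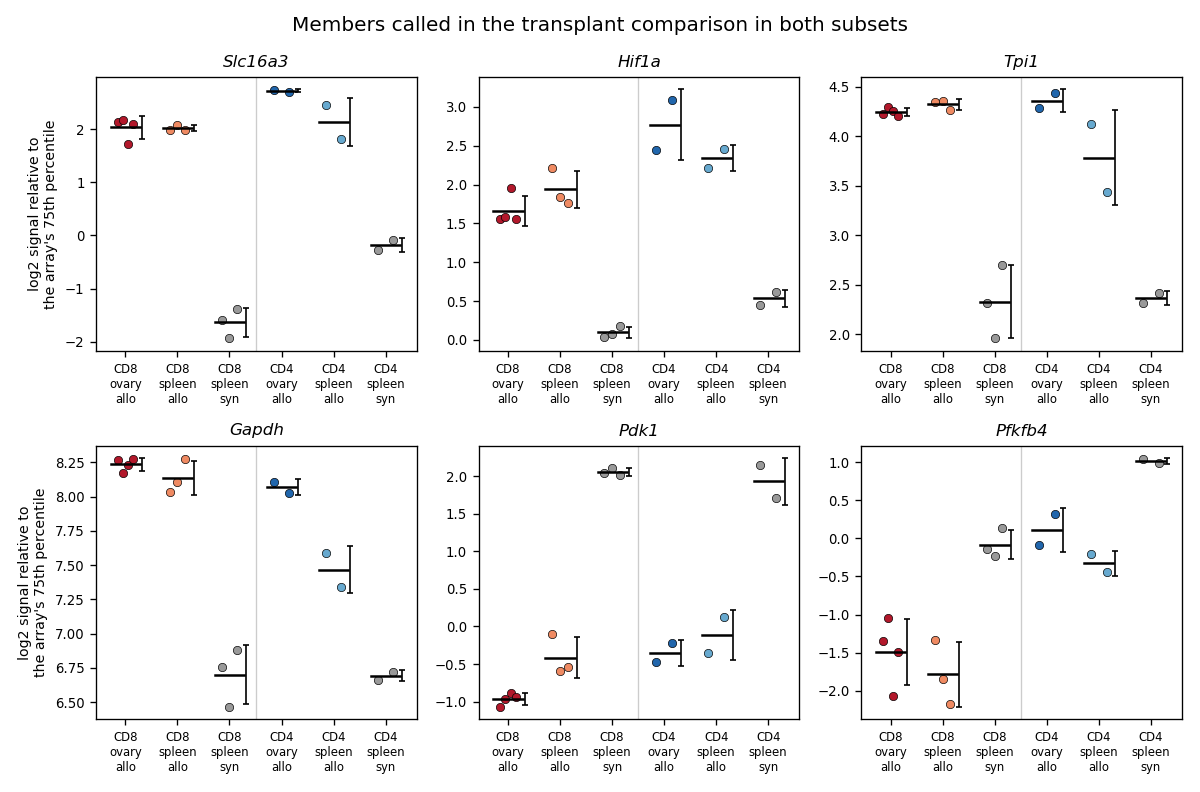
Level (log2 signal relative to the array's 75th percentile) of the 6 members called the same way in both subsets, 1 point per array, with the group mean (horizontal line) and SD (vertical bar beside it). Slc16a3, Hif1a, Tpi1 and Gapdh are higher and Pdk1 and Pfkfb4 lower in the splenic allogeneic groups than in the grey syngeneic groups of the same subset, without overlap.

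The promoters of these 6 genes are printed because the genes moved together in both subsets. The sequences are the 250 bases before the transcription start in RefSeq (GRCm38.p6), 5′ to 3′ on the gene's strand. Capitals mark the hypoxia response core, searched as ACGTG and GCGTG on both strands; the E-box CACGTG, which contains ACGTG, was searched as well.
Slc16a3 (chr11:120948817-120949066, plus strand): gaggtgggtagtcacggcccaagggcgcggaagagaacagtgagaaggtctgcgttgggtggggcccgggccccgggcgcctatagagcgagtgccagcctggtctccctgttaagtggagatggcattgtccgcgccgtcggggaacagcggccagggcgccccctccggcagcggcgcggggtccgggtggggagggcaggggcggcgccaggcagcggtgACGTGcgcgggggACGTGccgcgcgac
Hif1a (chr12:73907617-73907866, plus strand): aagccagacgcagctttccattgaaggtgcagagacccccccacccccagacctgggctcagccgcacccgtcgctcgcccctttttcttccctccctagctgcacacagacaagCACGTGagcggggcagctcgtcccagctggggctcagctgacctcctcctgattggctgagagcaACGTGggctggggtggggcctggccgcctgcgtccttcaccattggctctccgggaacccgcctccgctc
Tpi1 (chr6:124814159-124814408, minus strand): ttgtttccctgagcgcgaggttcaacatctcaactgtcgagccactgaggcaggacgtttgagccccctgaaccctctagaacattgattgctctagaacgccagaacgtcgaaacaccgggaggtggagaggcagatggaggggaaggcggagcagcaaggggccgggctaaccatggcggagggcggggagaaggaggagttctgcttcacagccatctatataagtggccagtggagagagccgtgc
Gapdh (chr6:125165774-125166023, minus strand): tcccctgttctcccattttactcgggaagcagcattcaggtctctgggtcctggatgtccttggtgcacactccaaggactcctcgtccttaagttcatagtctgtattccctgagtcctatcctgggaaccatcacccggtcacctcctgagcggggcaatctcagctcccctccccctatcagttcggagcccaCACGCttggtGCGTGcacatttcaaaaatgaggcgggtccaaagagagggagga
Pdk1 (chr2:71872974-71873223, plus strand, the upstream of its 2 windows): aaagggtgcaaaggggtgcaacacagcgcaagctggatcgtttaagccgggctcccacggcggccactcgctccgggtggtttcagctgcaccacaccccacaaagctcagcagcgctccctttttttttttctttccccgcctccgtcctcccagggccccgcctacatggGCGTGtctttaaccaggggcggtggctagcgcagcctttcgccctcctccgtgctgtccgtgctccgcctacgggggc
Pfkfb4 (chr9:108991652-108991901, plus strand): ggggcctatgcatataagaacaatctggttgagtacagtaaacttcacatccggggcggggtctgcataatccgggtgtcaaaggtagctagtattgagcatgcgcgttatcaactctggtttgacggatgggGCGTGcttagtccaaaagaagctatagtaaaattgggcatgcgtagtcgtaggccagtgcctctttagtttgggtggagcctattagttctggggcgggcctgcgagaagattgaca
The core occurred 2 times in the Slc16a3 and Gapdh windows, 3 times in that of Hif1a, where 2 matches are both strands of the E-box, and 1 time in those of Pdk1 and Pfkfb4, the members that fell; the other Pdk1 window held none. The Tpi1 window held no match, which says only that these letters are not in this window. The table held promoters for 33 of the 34 members, in 47 windows, and 37 of these windows (78.7%) held the core, against 38.6% of all 32851 windows of the same length. The E-box was in 5 of the 47 windows, against 6.02% of all windows. A match is a description of the sequence and not a site of binding.

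Of the glucose transporters, Slc2a3 (GLUT3) rose in CD8 cells and Slc2a1 (GLUT1) was not called. Slc2a3 had 3.45, 3.31 and 3.03 on allogeneic splenic CD8 arrays against 2.09, 1.80 and 2.06 on syngeneic ones, a difference of 1.28 ± 0.17 without overlap (limma adjusted p = 0.000109). In splenic CD4 cells it had 3.14 and 2.57 after allogeneic against 2.06 and 2.37 after syngeneic transplantation, a difference of 0.64 ± 0.21 that was not called (limma adjusted p = 0.0608). Ovarian cells had 3.14, 3.22, 3.14 and 3.19 (CD8) and 3.01 and 2.95 (CD4). Slc2a1 was 0.70, 3.07 and 2.98 on the allogeneic splenic CD8 arrays, where replicate 1 stood far below the other 2, against 2.51, 2.65 and 2.62 on syngeneic ones. Over all 16 arrays its within-group SD was 0.66, the second highest of the 34 after Hk2 (0.87), while Hk1 had the lowest (0.12).

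A set of 11 members covers the steps from hexokinase to triosephosphate isomerase, and in CD8 cells 5 of them rose (Hk1, Gpi1, Pfkp, Aldoa and Tpi1) and 1 fell (Pfkfb4). Hk1, a hexokinase bound to mitochondria, had 5.14, 5.17 and 5.14 on allogeneic against 4.46, 4.42 and 4.42 on syngeneic splenic CD8 arrays, 0.71 ± 0.13 higher (limma adjusted p = 0.00126). Its other levels were 5.32, 5.33, 5.09 and 5.35 in ovarian CD8 cells, 5.16 and 5.02 in ovarian CD4 cells, and 4.98 and 4.56 in allogeneic against 4.41 and 4.41 in syngeneic splenic CD4 cells. Hk2, the inducible hexokinase, differed by 1.04 ± 0.65 in CD8 cells and was not called (limma adjusted p = 0.227). Gpi1, glucose 6-phosphate isomerase, had 7.31, 7.31 and 7.22 on allogeneic against 6.66, 6.58 and 6.89 on syngeneic splenic CD8 arrays. These groups did not overlap, and the difference was 0.57 ± 0.17 (limma adjusted p = 0.0223), but leaving out replicate 1 or 2 of either group ended the call (limma adjusted p over single omissions 0.023 to 0.0819), as did normexp background correction with quantile normalization, called normexp from here on (limma adjusted p = 0.66) and the mean of its probes (limma adjusted p = 0.239). The mean of its probes includes another probe's reading of -0.08 on 1 allogeneic splenic CD4 array, and the fit shares 1 spread over all groups. Each of the 3 Gpi1 probes was higher on every allogeneic than on any syngeneic splenic CD8 array. On the other arrays Gpi1 was 7.33, 7.42, 7.30 and 7.37 in ovarian CD8 cells, 6.96 and 6.84 in ovarian CD4 cells, and 7.23 and 6.46 in allogeneic against 6.65 and 6.55 in syngeneic splenic CD4 cells.

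Phosphofructokinase commits sugar to glycolysis, and of its 3 subunits the platelet type, Pfkp, was the one called. Pfkp had 3.13, 3.11 and 2.57 on allogeneic splenic CD8 arrays against 1.93, 1.69 and 1.76 on syngeneic ones, 1.15 ± 0.18 higher (limma adjusted p = 0.00035), and 2.33 and 1.98 in allogeneic against 1.60 and 1.32 in syngeneic splenic CD4 cells. Ovarian cells had 2.77, 2.89, 3.14 and 2.83 (CD8) and 2.58 and 2.63 (CD4). Another Pfkp probe showed a smaller CD8 difference of 0.17, and with the mean of both probes the call was lost (limma adjusted p = 0.0868). The liver and muscle subunits differed by 0.27 (Pfkl) and 0.14 (Pfkm) in CD8 cells, and Pfkfb3, the counterpart of Pfkfb4 with high kinase activity, by -0.17; none of these was called. Aldoa, the main aldolase of most tissues, had 7.38, 7.48 and 7.11 on allogeneic splenic CD8 arrays against 6.90, 6.56 and 6.64 on syngeneic ones, 0.62 ± 0.16 higher (limma adjusted p = 0.00976). Its CD4 levels in the spleen were 7.48 and 7.06 after allogeneic against 6.79 and 6.55 after syngeneic transplantation, and its ovarian levels 7.45, 7.50, 7.26 and 7.46 (CD8) and 7.71 and 7.63 (CD4).

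Of the 8 members from Gapdh to pyruvate kinase, 6 rose in CD8 cells (Gapdh, Pgk1, Pgam1, Bpgm, Eno1 and Pkm) and none fell. Pgk1, which makes ATP from 1,3-bisphosphoglycerate, had 6.003, 5.83 and 5.25 on allogeneic splenic CD8 arrays against 4.69, 4.34 and 4.54 on syngeneic ones, 1.17 ± 0.19 higher (limma adjusted p = 0.000566). In CD4 cells the spleen values were 4.61 and 4.46 after allogeneic against 4.53 and 4.17 after syngeneic transplantation and overlapped, and the ovarian values were 5.51, 5.56, 5.28 and 5.48 (CD8) and 5.22 and 5.44 (CD4). Pgam1, phosphoglycerate mutase, had 5.22, 5.21 and 4.65 in allogeneic against 4.23, 4.17 and 4.27 in syngeneic splenic CD8 cells (0.80 ± 0.18, limma adjusted p = 0.00402). Both rose without overlap in CD8 cells. Pgam1 had 4.70 and 4.21 in allogeneic against 3.96 and 3.75 in syngeneic splenic CD4 cells, and 5.09, 5.12, 4.97 and 5.09 (CD8) and 4.84 and 5.10 (CD4) in the ovary.

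Bpgm diverts part of the flow through 2,3-bisphosphoglycerate and is best known from red cells. It had 0.84, 0.52 and 0.46 on allogeneic splenic CD8 arrays against -0.10, -0.19 and 0.04 on syngeneic ones, 0.69 ± 0.15 higher (limma adjusted p = 0.00317); on slide 1 alone, as on slide 2 alone, it was not called. Of 6 erythroid and platelet markers tested, none was called in this comparison (4 were lower and 2 higher). The part of such cells in the Bpgm difference was not tested. Elsewhere Bpgm was 0.14, 0.34, 0.38 and 0.42 in ovarian CD8 cells, 0.21 and 0.40 in ovarian CD4 cells, and 0.07 and 0.34 in allogeneic against 0.16 and 0.34 in syngeneic splenic CD4 cells. Eno1, the widely expressed enolase, had 6.03, 5.91 and 5.56 in allogeneic against 5.28, 5.21 and 5.31 in syngeneic splenic CD8 cells (0.57 ± 0.15, limma adjusted p = 0.0104). Its splenic CD4 values were 5.83 and 5.44 after allogeneic against 5.24 and 5.18 after syngeneic transplantation, and its ovarian values 5.93, 5.88, 5.79 and 5.97 (CD8) and 6.14 and 6.004 (CD4). Pkm, pyruvate kinase of muscle and of dividing cells, had 4.81, 4.84 and 4.78 in allogeneic against 3.82, 3.39 and 3.71 in syngeneic splenic CD8 cells. This was 1.17 ± 0.16 higher without overlap (limma adjusted p = 0.000105). Pkm had 4.78 and 4.26 in allogeneic against 4.02 and 3.88 in syngeneic splenic CD4 cells, and 4.85, 4.89, 4.82 and 4.78 (CD8) and 5.04 and 4.81 (CD4) in the ovary.

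At the lactate end, Slc16a3 and Ldha rose in CD8 cells, and Ldhb and Slc16a1 were not called. Ldha, the lactate dehydrogenase subunit that dominates in glycolytic tissues, had 8.76, 8.42 and 8.20 on allogeneic splenic CD8 arrays against 7.65, 7.69 and 7.47 on syngeneic ones, 0.86 ± 0.16 higher without overlap (limma adjusted p = 0.00131). In splenic CD4 cells the values were 7.74 and 7.50 after allogeneic against 7.71 and 7.36 after syngeneic transplantation and overlapped. Ovarian cells had 8.20, 8.19, 8.25 and 8.24 (CD8) and 8.17 and 8.35 (CD4). Slc16a1 (MCT1), a carrier that moves lactate in both directions, ranged from -3.78 to -1.84 over the 16 arrays and differed by -0.26 ± 0.35 in CD8 cells.

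At pyruvate dehydrogenase, the subunit Pdhb and the kinase Pdk3 rose in CD8 cells while Pdk1 fell. Pdk3 had 1.91, 1.69 and 1.13 on allogeneic splenic CD8 arrays against 0.32, -0.17 and 0.37 on syngeneic ones, 1.41 ± 0.23 higher (limma adjusted p = 0.000545). In CD4 cells its spleen values were 0.25 and -0.21 after allogeneic against -0.19 and -0.38 after syngeneic transplantation, with overlap, and its ovarian values were 1.55, 1.45, 1.003 and 1.31 (CD8) and 0.80 and 0.55 (CD4). The kinases thus moved in opposite directions in CD8 cells. Pdhb, a subunit of the first enzyme of the complex, had 5.14, 4.89 and 5.11 in allogeneic against 4.36, 4.55 and 4.36 in syngeneic splenic CD8 cells (0.62 ± 0.15, limma adjusted p = 0.00643). Its other values were 4.74 and 4.27 in allogeneic against 4.02 and 4.09 in syngeneic splenic CD4 cells, 4.93, 4.91, 4.96 and 5.01 in ovarian CD8 cells and 4.48 on the 1 ovarian CD4 array with a usable spot. Another Pdhb probe differed by -0.01 in CD8 cells, and the mean of both probes was not called (limma adjusted p = 0.217), nor was Pdhb with normexp (limma adjusted p = 0.0676). Pdha1, the partner subunit, differed by 0.06 ± 0.25 in CD8 cells.

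Of the 4 pentose phosphate members, G6pdx and Tkt rose in CD8 cells and Pgd and Taldo1 were not called, although all 4 were higher on every allogeneic CD8 array than on any syngeneic one. G6pdx, glucose 6-phosphate dehydrogenase, opens the branch and makes NADPH. It had 2.72, 2.88 and 2.58 on allogeneic splenic CD8 arrays against 2.47, 1.96 and 2.22 on syngeneic ones, 0.51 ± 0.18 higher (limma adjusted p = 0.0382). The call was lost in 4 of 6 single omissions, namely of allogeneic replicate 1 or 2 and of syngeneic replicate 2 or 3 (limma adjusted p over all 6, 0.025 to 0.152), and with quantile normalization (limma adjusted p = 0.0728). G6pdx had 2.88 and 2.31 in allogeneic against 2.43 and 2.19 in syngeneic splenic CD4 cells, and 2.73, 2.72, 2.56 and 2.66 (CD8) and 2.63 and 2.66 (CD4) in the ovary. Tkt, transketolase, links the branch back to glycolysis. It had 6.27, 6.13 and 5.68 in allogeneic against 5.25, 5.01 and 5.20 in syngeneic splenic CD8 cells (0.87 ± 0.18, limma adjusted p = 0.00242). In splenic CD4 cells it had 5.02 and 4.57 after allogeneic against 5.07 and 4.90 after syngeneic transplantation, and in the ovary 5.99, 5.94, 5.66 and 5.90 (CD8) and 5.51 and 5.40 (CD4).

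Isoenzymes of a step often differed in how far they moved. The change of Slc16a3 relative to Slc16a1 within an array was 3.92 in CD8 cells and 2.21 in CD4 cells (log2, allogeneic minus syngeneic), and that of Pdk1 relative to Pdk3 was -3.87 and -2.35. Pfkfb3 changed relative to Pfkfb4 by 1.53 and 1.06, Pfkp relative to Pfkl by 0.88 and 0.54, and Ldha relative to Ldhb by 0.995 and 0.57. Slc16a1 was well above background on 1 of the 2 allogeneic splenic CD4 arrays, so the CD4 value of its pair is uncertain. In each of these 5 pairs the arrays of the 2 groups did not overlap in either subset. Slc2a1 relative to Slc2a3 changed by -1.62 in CD8 cells and -0.74 in CD4 cells, again without overlap; the CD8 value includes the low Slc2a1 array. Hk2 against Hk1 and Aldoc against Aldoa overlapped in CD8 cells, and Eno2 against Eno1 overlapped in CD4 cells. These are ratios of unequal change and carry no test of their own.

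The B-cell markers moved with the transplant comparison: of 7 tested, 5 were lower in allogeneic CD8 cells and 4 in allogeneic CD4 cells, with summed levels of 10.3 to 10.4 on allogeneic against 35.2 to 73.6 on syngeneic CD4 arrays. The macrophage and monocyte sum was 7.45 to 9.15 on allogeneic against 8.63 to 15.0 on syngeneic CD8 arrays, where 2 of 10 genes fell, and 89.4 to 110.5 on allogeneic against 27.2 to 46.0 on syngeneic CD4 arrays, where 2 of 10 rose. The part of these cells in the members' differences was not tested. The counts also depended on which arrays entered. With the slide as a block 21 members were called in CD8 cells and 11 in CD4 cells, on slide 1 alone 22 and 15, and on slide 2 alone 2 (Slc16a3 and Pdk1) and 0. The same fits called 41.2% and 20.4% of all features with the block, 37.5% and 25.3% on slide 1, and 6.87% and 0% on slide 2. Each slide held 1 allogeneic and 1 syngeneic splenic CD4 array, and in CD8 cells 1 group of each pair had 1 array, which is then assumed to vary like the other groups. Without replicate 2 of the allogeneic CD4 group, which leaves it 1 array, 16 members and 17.1% of all features were called in CD4 cells.

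Whether the transplant effect differed between subsets was tested by the interaction. It was called for 3 members, Eno3, Slc16a3 and Tkt, all with the more positive transplant difference in CD8 cells; 10.5% of all features were called, 4.48% higher and 6.05% lower. Slc16a3 rose by 3.66 in CD8 cells and 2.32 in CD4 cells, a difference of 1.34 ± 0.31 (limma adjusted p = 0.0188). Its syngeneic CD8 level was the lower of the 2 syngeneic levels, while the allogeneic levels of both subsets lay close together. Tkt differed by 1.07 ± 0.28 (limma adjusted p = 0.0341), and this call was lost with normexp (0.65, limma adjusted p = 0.175) and in 7 of 10 single omissions (limma adjusted p over all 10, 0.0108 to 0.121); the Slc16a3 call was lost without replicate 2 of the syngeneic CD4 group (limma adjusted p = 0.0646). Eno3 encodes the enolase of muscle. It had 3.16, 3.18 and 3.38 on allogeneic against 3.17, 3.14 and 3.53 on syngeneic splenic CD8 arrays, and 2.05 and 1.71 on allogeneic against 3.05 and 3.23 on syngeneic splenic CD4 arrays. The CD8 groups overlapped, while Eno3 fell by 1.26 ± 0.18 in CD4 cells (limma adjusted p = 0.001), and the interaction was 1.21 ± 0.24 (limma adjusted p = 0.00935). Across the 34 members the interaction was above 0 for 28, with a median of 0.33 (0.15 with normexp), and below 0 for 6; over all features 43.4% were above 0.

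The tissue comparison set T cells of the ovary beside those of the spleen in allogeneic recipients. In CD8 cells no member was called, where limma called 0.376% of all features and 0.577% of those with a symbol; 2 of the 34 had an unadjusted p under 0.05 against 7.95% of all features, and with array quality weights 15 were called, 4 higher and 11 lower, where the same fit called 45.3% of all features, 25% higher and 20.3% lower. Of the 34 differences, 15 were above and 19 below 0, with a median of -0.04. The arrays of both groups separated for 4 members (12.4% of all features did so, 7.34% higher and 5.03% lower): Aldoc and Pfkfb3 were above and Pdk1 and Bpgm below the spleen on every array. Aldoc, the brain-type aldolase, had 1.17, 1.51, 0.95 and 1.48 in ovarian against 0.52, 0.54 and 0.57 in splenic CD8 cells, a difference of 0.73 ± 0.23 (limma adjusted p = 0.333). Pdk1 had the ovarian and splenic levels given above, with a difference of -0.55 ± 0.17 (limma adjusted p = 0.29). Bpgm differed by -0.29 ± 0.14 (limma adjusted p = 0.645). Slc16a3, Tpi1, Gapdh and Pkm, which had risen in the spleen, differed between ovary and spleen by 0.02, -0.08, 0.10 and 0.02, with standard errors from 0.13 to 0.18. These intervals do not show that the levels were the same.

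**Figure D3:**
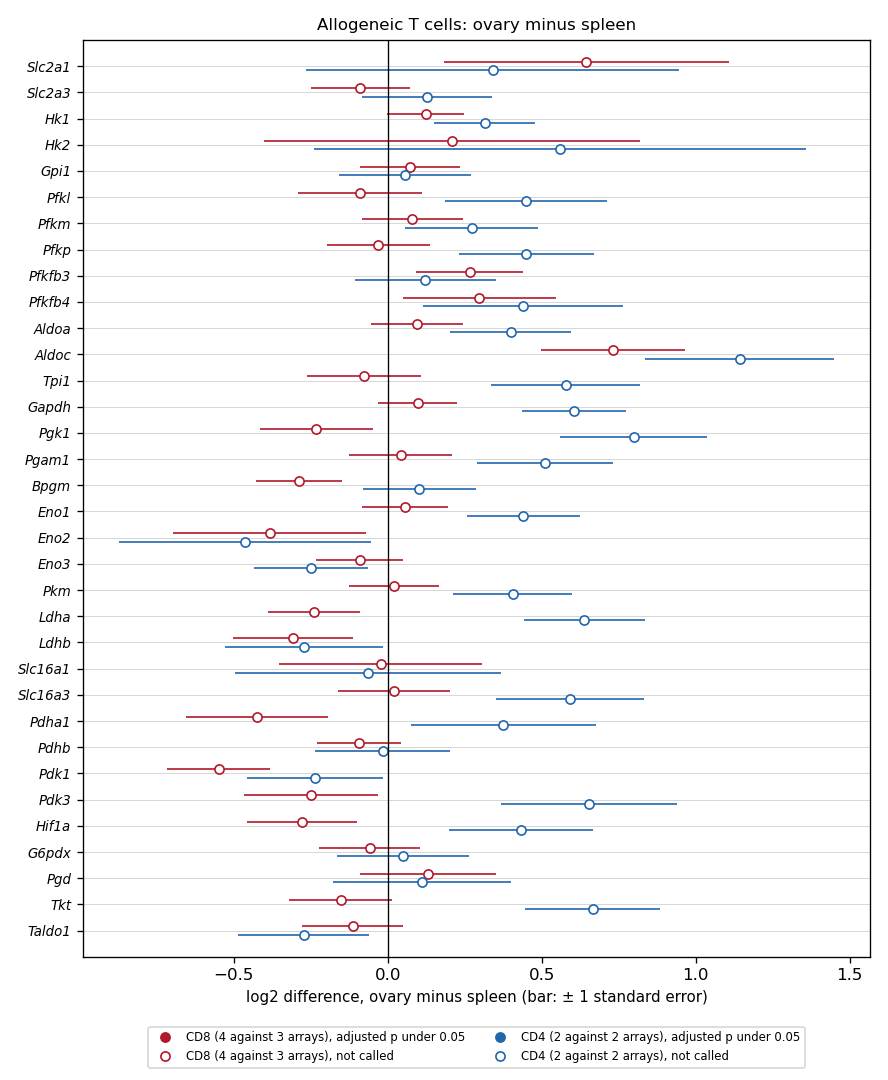
Log2 difference of each of the 34 members between ovarian and splenic allogeneic T cells, with bars of 1 standard error, for CD8 cells (red, 4 against 3 arrays) and CD4 cells (blue, 2 against 2 arrays). No point is filled, since no member was called; the CD4 differences have a median of 0.39 and the CD8 differences of -0.04.

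In CD4 cells the ovarian levels tended to lie above the splenic ones, and again no member was called (0.777% of all features were, and 0.898% of those with a symbol). The difference was above 0 for 27 of 34 members, against 44.6% of all features, and the median was 0.39, against -0.06 over all features. There were 10 members with an unadjusted p under 0.05, against 15.3% of all features, and 19 did not overlap, against 33.6% of all features; 17 of these were higher (14.7% of all features) and 2, Eno2 and Eno3, lower (18.9%). Aldoc had 2.21 and 1.82 in ovarian against 0.45 and 1.29 in splenic CD4 cells, a difference of 1.14 ± 0.31 (limma adjusted p = 0.117). Gapdh differed by 0.60 ± 0.17 (limma adjusted p = 0.132) and Pgk1 by 0.80 ± 0.24 (limma adjusted p = 0.157), from the arrays given above. Each of the 3 was separated, and none passed the threshold. Ldha differed by 0.64 and Tkt by 0.67, also without overlap. Syngeneic splenic CD4 cells had 1.57 and 1.33 for Aldoc, and syngeneic splenic CD8 cells 0.33, 0.52 and 1.08. Without replicate 2 of the splenic CD4 group, 1 of the 2 dimmest arrays, 2 members were called, Aldoc among them (limma adjusted p = 0.0114), and 7.25% of all features; that group then has 1 array, assumed to vary like the other groups.

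The difference between these tissue effects, CD8 minus CD4, was called for no member (0.0223% of all features were, 0.0186% higher and 0.00372% lower). It was below 0 for 26 of 34 members, with a median of -0.33 against 0.09 over all features, and 6 members had an unadjusted p under 0.05, against 11.0% of all features. Ldha differed by -0.88 ± 0.25 (limma adjusted p = 0.287) and Pgk1 by -1.03 ± 0.30 (limma adjusted p = 0.292). Both tissue comparisons use sorted cells of 2 organs. Of 5 theca and luteal genes measured, Hsd3b1 and Cyp11a1 were not well above background on any splenic array, and Lhcgr on no array at all. Star and Cyp17a1 were well above background on every splenic array. Cyp17a1 ranged from -1.24 to 5.13 on splenic and from 3.15 to 4.16 on ovarian arrays. The granulosa gene Foxl2 had 4.26 to 4.77 on splenic and 4.22 to 4.91 on ovarian arrays. Nr5a2, also on the granulosa list, had -3.59 to -1.95 on splenic and -1.48 to 0.40 on ovarian arrays. Wt1 was not well above background on any splenic array, but was so on ovarian arrays of both subsets, and Amh on no array at all. Of 4 theca and luteal markers tested 2 were higher in ovarian CD8 cells and 1 in ovarian CD4 cells, and of 5 granulosa markers 1 and 2. Of 7 B-cell markers, 2 were lower in ovarian CD8 cells, with a median of -2.41 over the 7, and 3 in ovarian CD4 cells, with a median of -3.27. The macrophage and monocyte sum was 10.2 to 11.4 in ovarian against 7.45 to 9.15 in splenic CD8 cells, and 65.3 to 158.1 in ovarian against 89.4 to 110.5 in splenic CD4 cells. Of its 10 genes, none rose and 1 fell in ovarian CD8 cells and 1 rose and 1 fell in ovarian CD4 cells; their part in the differences was not tested.

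The subset comparison set CD8 against CD4 cells in each of the 3 settings that held both. In the ovary 2 members were higher in CD8 cells (Eno3 and Taldo1) and 6 lower (Ldhb, Pfkfb4, Hif1a, Eno2, Slc16a3 and Pdk1), with 15.2% of all features called, 7.12% higher and 8.06% lower, and 18.6% of those with a symbol. In the allogeneic spleen 8 were higher (Eno3, Tkt, Pdk3, Pgk1, Ldha, Gapdh, Pfkp and Pdhb) and 3 lower (Ldhb, Pfkfb4 and Eno2), with 26.6% called, 13% higher and 13.7% lower, and 30.3% of those with a symbol. In the syngeneic spleen none was higher and 2 were lower (Ldhb and Slc16a3), with 3.65% called, 1.13% higher and 2.52% lower, and 5.21% of those with a symbol. The CD8 and CD4 arrays did not overlap for 21 members in the ovary (45.7% of all features; 10 higher against 26.1%, 11 lower against 19.6%), for 19 in the allogeneic spleen (48.1%; 14 higher against 21.4%, 5 lower against 26.7%) and for 14 in the syngeneic spleen (33.6%; 6 higher against 21.3%, 8 lower against 12.3%). Ldhb, the lactate dehydrogenase subunit of oxidative tissues, was the member called in all 3.

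Ldhb had 0.28, 0.49, -0.30 and 0.43 in ovarian CD8 cells against 1.86 and 1.52 in ovarian CD4 cells. In the allogeneic spleen it had 0.64, 0.56 and 0.40 in CD8 against 2.07 and 1.86 in CD4 cells, and in the syngeneic spleen 0.92, 0.63 and 0.46 in CD8 against 2.44 and 2.45 in CD4 cells. All CD8 arrays lay below all CD4 arrays in each setting, with mean differences of -1.47 ± 0.22 (ovary, limma adjusted p = 0.00134), -1.43 ± 0.23 (allogeneic spleen, limma adjusted p = 0.00133) and -1.77 ± 0.23 (syngeneic spleen, limma adjusted p = 0.000985). Ldha relative to Ldhb was accordingly higher in CD8 cells by 1.43, 2.27 and 1.84 in the 3 settings.

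Eno3 had 3.08, 3.18, 3.05 and 3.27 in ovarian CD8 cells against 1.71 and 1.56 in ovarian CD4 cells. It was 1.51 ± 0.16 higher in CD8 cells there (limma adjusted p = 0.000124) and 1.35 ± 0.17 higher in the allogeneic spleen (limma adjusted p = 0.000257), with no overlap in either. In the syngeneic spleen, where the values given above overlapped, the difference was 0.14 ± 0.17 (limma adjusted p = 0.863). The 4 allogeneic CD4 arrays, ovary and spleen together, ranged from 1.56 to 2.05, and the other 12 arrays from 3.05 to 3.53.

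Eno2, the neuronal enolase, had -3.25, -3.15, -3.31 and -2.82 in ovarian CD8 cells against -1.56 and -1.48 in ovarian CD4 cells, and -2.74, -2.85 and -2.66 in allogeneic splenic CD8 against -0.92 and -1.19 in CD4 cells. The differences were -1.61 ± 0.35 (limma adjusted p = 0.011) and -1.69 ± 0.37 (limma adjusted p = 0.0069), and the ovarian call was lost without replicate 2 of the ovarian CD4 group (limma adjusted p = 0.084). With normexp they shrank to -0.61 (limma adjusted p = 0.0308) in the ovary and -0.49 (limma adjusted p = 0.0566, not called) in the allogeneic spleen. Syngeneic cells were spread more widely, with -1.78, -2.66 and -1.09 (CD8) and -2.32 and -1.41 (CD4). Pfkfb4 was lower in CD8 cells, with differences of -1.60 ± 0.28 in the ovary (limma adjusted p = 0.00339) and -1.46 ± 0.30 in the allogeneic spleen (limma adjusted p = 0.00446), and the difference of -1.10 ± 0.30 in the syngeneic spleen was not called (limma adjusted p = 0.0686).

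Hif1a was lower in ovarian CD8 than in ovarian CD4 cells, with a difference of -1.11 ± 0.20 (limma adjusted p = 0.00417), a call lost without replicate 2 of the ovarian CD4 group (limma adjusted p = 0.0668). In the spleens the differences were -0.40 (allogeneic) and -0.44 (syngeneic), not called. Slc16a3 was lower in CD8 cells, with differences of -1.46 ± 0.22 in the syngeneic spleen (limma adjusted p = 0.00217) and -0.69 ± 0.21 in the ovary (limma adjusted p = 0.0426). The ovarian Slc16a3 call, and that of Pdk1 (-0.61 ± 0.19, limma adjusted p = 0.0489), were lost whichever single array was left out (limma adjusted p 0.0669 to 0.182 and 0.0589 to 0.322). Taldo1, transaldolase, had 6.68, 6.65, 6.65 and 6.74 in ovarian CD8 against 5.93 and 6.09 in ovarian CD4 cells, 0.67 ± 0.19 higher (limma adjusted p = 0.0302). It lost its call in 5 of 6 single omissions (limma adjusted p over all 6, 0.042 to 0.127), with quantile normalization (limma adjusted p = 0.0932) and with normexp (limma adjusted p = 0.0636). In the spleen Taldo1 had 6.85, 6.81 and 6.73 in CD8 against 6.64 and 5.92 in CD4 cells after allogeneic transplantation, and 6.35, 6.25 and 6.64 in CD8 against 6.33 and 6.19 in CD4 cells after syngeneic transplantation.

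The 8 members that were higher in CD8 cells of the allogeneic spleen lie in several stages. Tkt was higher by 1.24 ± 0.20 (limma adjusted p = 0.00131), Pdk3 by 1.56 ± 0.26 (limma adjusted p = 0.00154) and Pgk1 by 1.16 ± 0.22 (limma adjusted p = 0.00302). Ldha was higher by 0.84, Gapdh by 0.67, Pfkp by 0.78 and Pdhb by 0.54. In the syngeneic spleen the same members differed by 0.17 (Tkt), 0.46 (Pdk3), 0.17 (Pgk1), 0.07 (Ldha), 0.01 (Gapdh), 0.33 (Pfkp) and 0.37 (Pdhb), and none was called. Pdhb lost its call in 3 of 5 single omissions (limma adjusted p over all 5 0.00732 to 0.213), and so did Pfkp (0.00324 to 0.0988). The Pdhb call held in 4 of 15 processing alternatives, and its difference was 0.014 with normexp (limma adjusted p = 0.965) and 0.28 with quantile normalization (limma adjusted p = 0.157). With normexp Pgk1 was not called either (0.59, limma adjusted p = 0.055), and the Tkt difference was 0.69 (limma adjusted p = 0.0289). Without replicate 1 of the allogeneic CD4 group, which leaves that group 1 array, 20 members were called in place of 11, and 27.5% of all features. All 10 macrophage and monocyte genes were lower in CD8 than in CD4 cells of the ovary and of the allogeneic spleen. In the syngeneic spleen 5 of 10 were lower. Trem2, however, was not well above background on any allogeneic splenic array of either subset, so its difference there compares background readings. Of 7 B-cell markers 1 was lower in CD8 cells in the ovary and 3 in the allogeneic spleen. The part of these other cells in the subset differences was not tested.

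**Figure D4:**
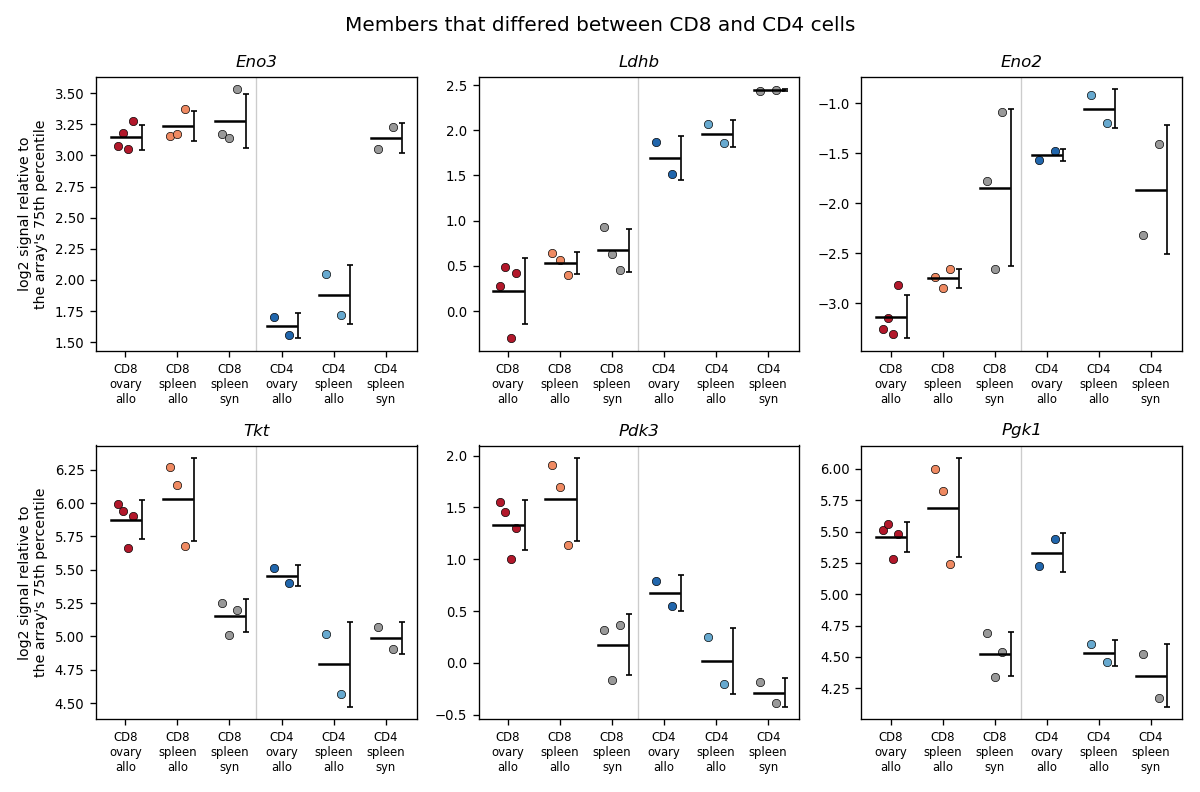
Level (log2 signal relative to the array's 75th percentile) of 6 members that differed between CD8 and CD4 cells, 1 point per array, with the group mean (horizontal line) and SD (vertical bar beside it). Ldhb is lower in CD8 cells in all 3 settings; Eno3 lies at 1.56 to 2.05 on the 4 allogeneic CD4 arrays and at 3.05 to 3.53 on the other 12.

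Besides Aldoc, 8 members were called in no comparison: Slc2a1, Hk2, Pfkl, Pfkm, Pfkfb3, Slc16a1, Pdha1 and Pgd. Over the 16 arrays Hk2 ranged from -3.20 to 1.13, Slc2a1 from 0.70 to 3.37 and Pgd, 6-phosphogluconate dehydrogenase, from 1.52 to 2.84. Pgd was 0.59 ± 0.24 higher in allogeneic splenic CD8 cells (limma adjusted p = 0.0688). Pfkl ranged from -1.60 to -0.59, Pfkm from -0.49 to 0.68, Pfkfb3 from 2.03 to 3.04 and Pdha1 from -0.15 to 1.04.

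A list of 82 further genes of the same pathways and their regulators was drawn up, of which 70 were tested. In the transplant comparison 13 rose and 12 fell in CD8 cells, and 4 rose and 6 fell in CD4 cells. These counts are close to the shares over all features, 37.2% in CD8 and 14.5% in CD4 cells. Among 17 isoenzymes and accessory genes, 6 rose and 3 fell in CD8 cells: the ADP-dependent glucokinase Adpgk fell by 1.46 ± 0.14, while the mitochondrial glycerol 3-phosphate dehydrogenase Gpd2 rose by 1.86 ± 0.19, the phosphoglucomutase Pgm1 by 1.08 ± 0.13 and the transporter Slc2a8 by 1.72 ± 0.22. In CD4 cells Adpgk fell by 1.36 ± 0.17 and Pgm1 rose by 0.80 ± 0.16; Hk3, a hexokinase best known from myeloid cells, rose by 1.99 ± 0.53 and was lower in CD8 than in CD4 cells of the ovary (-2.17 ± 0.46). Of 9 further pentose phosphate genes, 3 rose in CD8 cells and none in CD4 cells. Rpia rose by 0.77 and Rpe by 0.39, while Tktl1 was not well above background on any syngeneic CD8 array, so no size is given. Of 9 genes around pyruvate dehydrogenase, none rose and 3 fell in CD8 cells, namely the kinase Pdk2 (-1.58), the phosphatase subunit Pdp2 (-1.07) and pyruvate carboxylase Pcx (-1.22).

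Of 22 regulators tested, 2 rose and 2 fell in CD8 cells, a smaller share than the 37.2% of all features called. Irf4, a transcription factor induced through the T-cell receptor, rose by 2.86 ± 0.25 (limma adjusted p = 3.32e-06) and Hif1an, which restrains HIF-1, by 1.04 ± 0.29 (limma adjusted p = 0.0143). Myc was lower after allogeneic transplantation in both subsets, with differences of -0.63 ± 0.21 in CD8 cells (limma adjusted p = 0.0325) and -1.03 ± 0.25 in CD4 cells (limma adjusted p = 0.0195), and Tsc1, an inhibitor of mTOR signalling, differed by -0.88 ± 0.18 in CD8 cells. Of 13 HIF target genes outside glycolysis, 2 rose and 4 fell in CD8 cells, beside the same 37.2%. Rora rose by 3.20 ± 0.30, whereas P4ha1, a collagen prolyl hydroxylase, differed by -1.75 ± 0.28, the histone demethylase gene Kdm3a by -0.81 ± 0.15 and the mitophagy gene Bnip3 by -1.03 ± 0.20. In CD4 cells Rora rose by 1.44 and P4ha1, P4ha2 and Narf fell; the difference was -1.36 for P4ha1 and -1.52 for Narf, and P4ha2 was not well above background on either allogeneic splenic CD4 array. In the tissue comparisons none of the 70 was called in either subset, where 0.376% (CD8) and 0.777% (CD4) of all features were. An unadjusted p under 0.05 was found for 8 in CD8 cells and 11 in CD4 cells, close to the 7.95% and 15.3% of all features.

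In the subset comparison 9 of the 70 were higher and 6 lower in ovarian CD8 cells, 14 higher and 3 lower in allogeneic splenic CD8 cells, and none higher and 6 lower in syngeneic splenic CD8 cells. Over all features 15.2%, 26.6% and 3.65% were called in these settings. Gpd2 was higher in CD8 cells by 2.26 ± 0.21 in the ovary (limma adjusted p = 4.39e-05) and 2.82 ± 0.22 in the allogeneic spleen (limma adjusted p = 1.08e-05). The transplant difference of Gpd2 was more positive in CD8 than in CD4 cells by 2.48 ± 0.31 (limma adjusted p = 0.000733). In splenic CD4 cells the mean of Gpd2 was lower after allogeneic (-0.90) than after syngeneic transplantation (-0.27). That of Irf4 was more positive in CD8 cells by 2.39 ± 0.40 (limma adjusted p = 0.00412), with CD4 means of 1.21 and 0.75. Between subsets, Mtor was higher in CD8 cells of the ovary (0.74) and of the allogeneic spleen (0.87), while Epas1, which encodes HIF-2 alpha, was lower in CD8 cells of the ovary (-1.42).

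The array carried 51 probes for the 34 members. Gapdh had 7 probes, whose CD8 transplant differences ran from 0.40 to 2.39, all above 0. The other Slc16a3 probe differed by 3.75, the other Tpi1 probe by 1.95 and the other Ldha probes by 1.25 and 1.54 in CD8 cells. Another Gpi1 probe read -0.08 on replicate 1 of the allogeneic splenic CD4 group, against 6.78 to 7.75 on the other arrays.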

How the data were processed

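The deposited scanner files hold 1 processed intensity per spot, made by the authors in Agilent Feature Extraction, version 11.5.1.1 as the deposited headers state; the labels' protocols describe low-input Cy3 labelling of total RNA. A deposited series table of log2 values served as an alternative source. It matched the log2 signal minus the array's 75th percentile and minus each probe's median. Here log2 intensity minus the array's 75th percentile was used. A probe was kept if 1 or more groups had it well above background throughout (31120 of 55681), control and outlier spots were left out, and the probe with the highest mean stood for a gene; Pdhb therefore lacked 1 ovarian CD4 array. limma 3.58.1 in R 4.3.3 fitted 1 mean per group over all 16 arrays, with Benjamini-Hochberg adjustment over 26890 features and a threshold of 0.05. Simulated log2 changes of 1 and 2 were put into the splenic CD8 transplant comparison, in a table of 26631 features. They were recovered in 28% and 81% of the altered features, with 12 false calls. Far fewer features were altered there than the 37.2% called in the data. A lower share of true changes makes the adjusted threshold stricter, so these rates do not give the power of that comparison.

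The members and gene lists were chosen with earlier results of these data known. Members called in any comparison, and the 3 with the highest moderated statistic where fewer than 3 were called, are given array by array. Both slides held every group, and the number of arrays limits the precision. Alternatives covered normalization, background correction, filter, probe choice, slide, array weights, variance model, arrays in the fit and single omissions.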

Additional observations from a re-analysis of the deposited data

Results flagged for a closer look

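Replicate 3 of the ovarian CD8 group stood apart from the other 3 arrays of its group by Dixon's test for 4 members: Slc2a1 at 3.37, Hk1 at 5.09, Slc16a3 at 1.73 and Hif1a at 1.96. Each of the 34 members was tested in this group of 4, and chance flags about 1 in 20. The transplant effect differed between CD8 and CD4 cells, by the interaction term in limma, for Slc16a3 (1.34), Eno3 (1.21) and Tkt (1.07).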

How the results depend on the processing

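Of the 52 calls made for single members, 2 (Slc16a3 and Pdk1 in the CD8 transplant comparison) held under every alternative run, 39 held whichever single array was left out, and none reversed. The share of all features called moved as well. In the CD8 transplant comparison it was 28.6% to 41% over the single omissions. Leaving out single arrays gave 0 members called between ovary and spleen in CD8 cells each time, 0 to 2 in CD4 cells, 19 to 22 in the CD8 and 5 to 16 in the CD4 transplant comparison, 3 to 6, 9 to 20 and 2 between CD8 and CD4 cells (ovary, allogeneic and syngeneic spleen), 0 to 1 in the tissue and 2 to 8 in the transplant interaction, and 56 to 114 calls of pathway neighbours over all comparisons, against 77. The highest CD4 transplant, CD4 tissue and tissue interaction counts came without replicate 2 of the allogeneic splenic CD4 group, which left it 1 array. The highest allogeneic subset count came without replicate 1 of that group, again leaving 1 array. The lowest ovarian subset count came without replicate 2 of the ovarian CD4 group, which also left 1 array. Without replicate 3 of the allogeneic splenic CD8 group the transplant interaction count was 8. The same fit called 16.8% of all features, against 10.5% with all arrays. Without replicate 1, 2 or 4 of the ovarian CD8 group the ovarian subset count was 5. These 3 fits called 9.57%, 9.21% and 9.51% of all features, against 15.2% with all arrays.

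With slide 1 alone, every comparison except the CD8 tissue comparison had a group of 1 array, and with slide 2 alone every comparison had one. Such an array is assumed to vary like the other groups. The fits of 1 slide therefore do not show how stable the member counts are. Percentages in brackets are the share of all features that the same fit called. With the slide as a block there were 11 in the CD4 transplant comparison (20.4%) and 6 in the transplant interaction (15.1%). Array weights gave 15 members between ovary and spleen in CD8 cells (45.3%), 4 in the syngeneic subset comparison (6.22%) and 123 neighbour calls. Normexp gave 1 in the CD4 tissue (2.09%) and 12 in the CD4 transplant comparison (18.8%). Without a filter there were 5 in the ovarian subset comparison (5.31%) and 1 in the interaction (2.2%). The filter on all 16 arrays gave 11 in the CD4 transplant comparison (18.9%) and 9 in the interaction (17.2%). Trended variance gave 11 (15.1%) and 6 (11.3%) in the same 2 comparisons. Fitting only the groups compared gave 0 in the CD4 transplant comparison (0%) and 0 in the interaction (3.55%). It gave 2 (3.68%) and 1 (1.64%) in the allogeneic and syngeneic subset comparisons, and 46 neighbour calls. Without the 2 dimmest arrays, chosen after seeing the data, the ovarian and the allogeneic splenic CD4 groups had 1 array each. Counts from that fit are therefore not given. The cause of these shifts was not tested.

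Same-numbered arrays did not deviate together throughout: r was 0.067 to 0.321 between ovarian and splenic CD8 cells, but -0.439 to 0.439 between CD8 and CD4 cells. Some same-numbered arrays lay on different slides, so r cannot settle whether they came from the same mice. The numbers were not taken to pair samples. With the replicate block 5 members were called in the ovarian subset comparison, and no other count of members moved by over 1.5 times. Normexp shifted the median of all features by 0.15 in the CD8 transplant comparison (member median 0.46), and quantile normalization by 0.10 in the transplant interaction (0.28); with normexp that interaction's member median was 0.15. The member median turned below 0 under both in the ovarian (-0.13 and -0.15) and syngeneic (-0.06 and -0.06) subset comparisons. In the tissue interaction, the share of called features that was higher was 83.3%, against 46.9% with quantile normalization and 67.9% with normexp. These shares rest on 6, 32 and 56 called features of 26890. Signal over background limits members such as Slc16a1, which was not well above background on 2 arrays.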
